A study of Homo sapiens with 6 samples.

Results

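The genes of the eukaryotic translation initiation factors were followed in 143B cells, a human osteosarcoma line, after transfection with a siRNA against SIGLEC15 or with a negative control siRNA. The deposited table holds 58825 genes. The set described here comprises its 56 protein-coding genes whose symbols begin with EIF and a digit. This rule uses name and annotation and no values, but members were chosen with earlier results of these data known. By this rule the set holds the factors, their inhibitors and the kinases that act on them. Of the 56, 53 had enough counts to be tested, and EIF1AY, EIF4E1B and EIF4EBP3 did not pass the filter on low counts.

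Cells of 1 group were given 80 nmol/L of a SIGLEC15 siRNA for 36 h (3 libraries), and cells of the other were given 80 nmol/L of the control siRNA for 36 h (3 libraries). All 6 libraries share the line, the transfection and the medium with serum, and no untransfected cells were among them. Poly(A) RNA was sequenced as paired-end libraries. The labels state neither the siRNA sequences nor whether replicates were grown apart, so the p-values rest on a spread between libraries that may be only technical.

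Initiation brings the small ribosomal subunit to the start codon. The eIF4F complex, made of the cap-binding protein eIF4E, the scaffold eIF4G and the helicase eIF4A, binds the mRNA cap. The eIF4E-binding proteins compete with eIF4G for eIF4E and are released when mTORC1 phosphorylates them. The initiator tRNA is carried by eIF2 with GTP, which eIF2B recharges. Phosphorylation of eIF2 by one of the eIF2 kinases blocks eIF2B, which lowers general translation and raises that of ATF4 mRNA. In many tumours eIF4E activity and the state of eIF2 are studied as controls of growth and stress survival.

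Total counts lay between 57966691 and 67655254 per library. The targeted gene itself was near the detection limit, with 12, 8 and 6 counts in the SIGLEC15 siRNA libraries and 12, 10 and 22 counts in the control siRNA libraries. The groups overlapped, and its log2 fold change of -0.82 (SE 0.598) did not pass edgeR's quasi-likelihood test (adjusted p = 0.529), so these counts do not check the labels. Vimentin (VIM), a mesenchymal marker, averaged 2692 ± 120 CPM with SIGLEC15 siRNA and 2969 ± 88.2 CPM with control siRNA (SD, n = 3 each). The osteoblast-lineage genes COL1A2 and ALPL were near 0 in all libraries, and CDH1, KRT5, PTPRC and CD3E, which mark epithelial and blood cells, had 0 counts in all 6, whereas the epithelial marker EPCAM averaged 10.2 CPM and the macrophage marker CD68 39.0 CPM with SIGLEC15 siRNA, against 12.3 and 50.3 CPM with control siRNA. Of 7 tested mesenchymal and osteoblast-lineage markers, SPARC (log2 fold change 0.80) and COL1A1 (0.69) rose in edgeR (28.6%, against 4.65% of all 18910 genes tested). Of the other 5, 4 had negative log2 fold changes that did not pass, TWIST1 (-0.37) and VIM (-0.14) among them, and the list median was -0.0983. RUNX2 had the largest change of the list, 2.00, with groups that did not overlap, but it did not pass (edgeR adjusted p = 0.113). It had 20.1, 3.6 and 15 CPM with SIGLEC15 siRNA and 3.42, 3.59 and 2.65 CPM with control siRNA. The 8 epithelial, blood and endothelial markers summed to 39.0 to 56.9 CPM with SIGLEC15 siRNA and 53.7 to 70.0 CPM with control siRNA, and their part in the results was not tested.

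A pair of sequences shows why counts of a central member, EIF4A1, are hard to assign. EIF4A1, the eIF4A helicase, lies downstream of SENP3, a SUMO protease gene, on the same strand, and the annotated read-through gene SENP3-EIF4A1 joins the pair. The main EIF4A1 transcript has 1756 bases in GENCODE 29, of which 1466 (83.5%) are also exon bases of the read-through transcript. The first sequence below is an exon junction that GENCODE 29 gives to the read-through gene alone (GRCh38, chr17:7571465-7571479 joined to chr17:7572284-7572298, plus strand, coding). The second joins EIF4A1 exons 1 and 2 (chr17:7572850-7572864 joined to chr17:7574260-7574274, plus strand, coding), and the read-through transcript and AC016876.2 hold it too. Each runs 5′ to 3′, and capitals mark the bases of the downstream exon.
SENP3-EIF4A1 alone: ctgcaaactcactgtCCAGGGGAATCCTCC
EIF4A1, also in SENP3-EIF4A1: gagccaggattcccgATCCAGAGACAATGG
Reads across the first junction can come from the annotated read-through alone, while reads across the second cannot be assigned by their sequence.

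At the level of the family, most initiation factor mRNAs differed little between the groups. Of the 53 tested genes, 1 passed the edgeR test at an adjusted p under 0.05 (1.89%), against 4.65% of all 18910 genes tested, and it was higher with SIGLEC15 siRNA, against 2.22% of all genes called higher. A 95% interval of the fold change that stayed within 1.5-fold in both directions was found for 46 of the 53 (86.8%). The same held for 41.8% of all genes tested and for 74.9% of the tested genes with a mean FPKM of at least 5. The median log2 fold change of the members was 0.023, against -0.00642 over all genes, and their median size of change was 0.117, against 0.215 over all genes and 0.142 over genes with a mean FPKM of at least 5. Members' counts made up 1.53, 1.58 and 1.57% of all counts in the SIGLEC15 siRNA libraries and 1.57, 1.53 and 1.51% in the control siRNA libraries, so the family's share overlapped.

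Small differences between the groups were nevertheless present, at an unadjusted p about as often as in other well-measured genes. The CPM values of the groups did not overlap for 22 of the 53 (41.5%), against 26.6% of all genes. At an unadjusted p under 0.05 there were 13 members (24.5%), 8 higher and 5 lower, against 19.1% of all genes. Well-measured genes separate more often: over tested genes with a mean FPKM of at least 5, the groups did not overlap for 33.2% and the unadjusted p was under 0.05 for 25.9%. For the 47 members at that level these shares were 42.6% and 25.5%. The DESeq2 Wald test called 11 of the 53 members, 7 higher and 4 lower, against 15.4% of all genes. When edgeR was run on the 6403 genes with a mean FPKM of at least 5, it called 4 of these 47 members, against 10.8% of those genes. The largest positive change fitted was 0.74 (EIF4B) and the largest negative one was -0.57 (EIF4A1), both on the log2 scale and neither past the test.

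**Figure D1:**
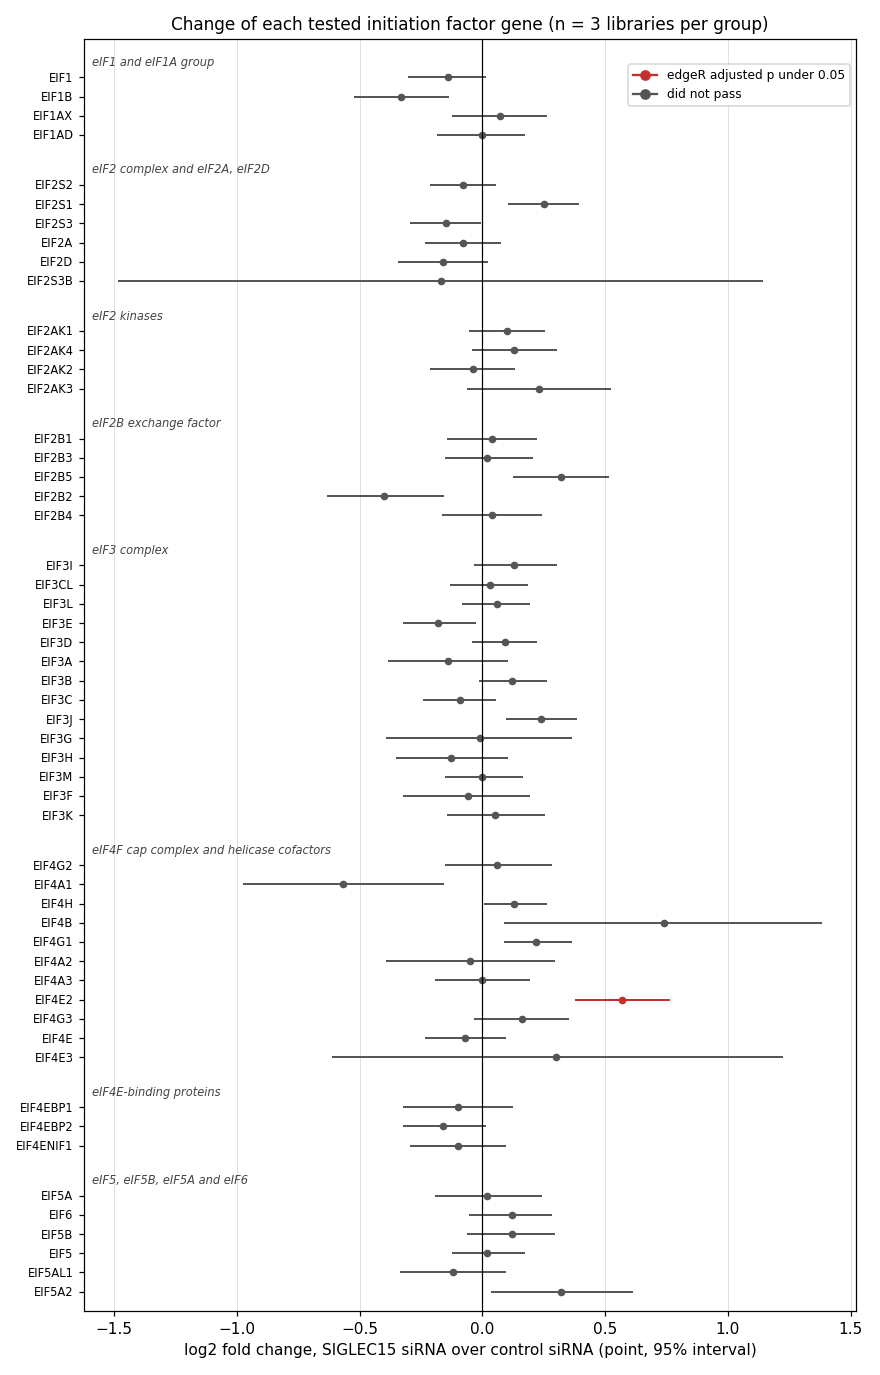
Log2 fold change of SIGLEC15 siRNA over control siRNA (x axis) for the 53 tested members, ordered by role and, within a role, by mean FPKM. Points are edgeR estimates and bars are 95% intervals (n = 3 libraries per group). EIF4E2 (0.57) is the 1 gene drawn in red as passing the test. The wide bars of EIF2S3B, EIF4E3 and EIF4B belong to genes whose libraries spread widely within a group.

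Per length, the family spanned a wide range of levels. Mean FPKM over the 6 libraries was at least 100 for 10 members, between 10 and 100 for 31, between 1 and 10 for 12 and under 1 for 3. The highest levels were those of EIF2S2 (224 FPKM), EIF5A (213 FPKM) and EIF4G2 (189 FPKM). EIF3I (157 FPKM), EIF1 (151 FPKM), EIF6 (136 FPKM) and EIF4EBP1 (135 FPKM) followed. In this order, 16 of the 55 pairs of neighbours were apart by more than the larger of their SDs over the libraries. EIF2S2 and EIF5A were not, and neither were EIF6 and EIF4EBP1. The cap-binding protein EIF4E averaged 4.66 FPKM.

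**Figure D2:**
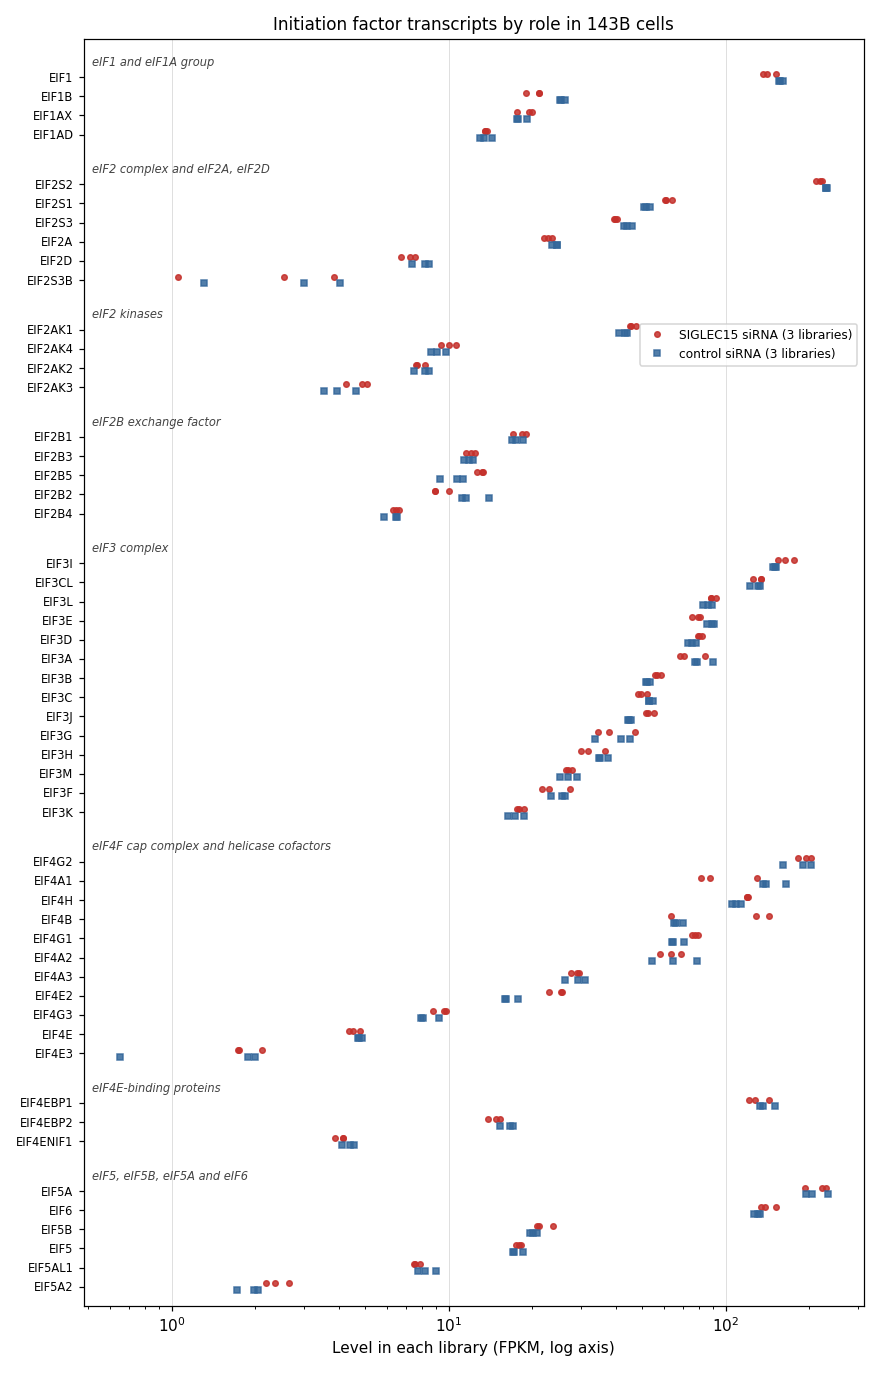
FPKM on a log axis (x axis) of the 53 tested members in each library, ordered by role and mean level. Red circles are the 3 SIGLEC15 siRNA libraries and blue squares below them the 3 control siRNA libraries. EIF2S2 averages 224 FPKM and EIF4E 4.66 FPKM, with EIF4E3, EIF2S3B and EIF5A2 lower still, and for most genes the libraries of the groups lie close together beside this range.

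Among the cap-binding proteins, EIF4E2 rose. It encodes 4EHP, a relative of eIF4E that binds the cap but does not bind eIF4G in the usual way, and is known as a repressor of selected mRNAs and as a cap binder in hypoxia. EIF4E2 (chr2:232550674-232583642, plus strand, as the table gives it) had 203, 194 and 180.2 CPM in the SIGLEC15 siRNA libraries, against 124, 125 and 141 CPM in the control siRNA libraries. Each SIGLEC15 siRNA library lay above each control library, and the means were 192 ± 11.7 and 130.0 ± 9.57 CPM (SD, n = 3 each). The log2 fold change was 0.57 (SE 0.0796, 95% interval 0.38 to 0.76), which is 1.48-fold, and edgeR's adjusted p was 0.0143. Without control library 1 or 2 or SIGLEC15 siRNA library 1 or 2 the change was 0.53, 0.53, 0.52 and 0.56 and edgeR's adjusted p was 0.0574, 0.0705, 0.0521 and 0.0666, above the threshold. Over all alternatives run its adjusted p ranged from 2.29e-11 to 0.118 and its sign did not turn. An antisense gene, AC073254, overlaps its end and shares 15.1% of the 50-base words of EIF4E2 transcripts; it had 0.798 to 1.45 CPM with SIGLEC15 siRNA and 0.452 to 0.801 CPM with control siRNA. Since the use of strand is not stated, reads of the overlap cannot be told apart.

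The other cap-binding proteins did not pass. EIF4E, the cap binder of eIF4F, had 76.7, 71.7 and 80.3 CPM with SIGLEC15 siRNA and 78.3, 81.2 and 80.4 CPM with control siRNA. Its log2 fold change was -0.07 (SE 0.0678, edgeR adjusted p = 0.655). EIF4E3, a further relative, had 22.8, 26.8 and 22.5 CPM with SIGLEC15 siRNA and 24.1, 25.8 and 8.46 CPM with control siRNA, where the third control library alone was low. The oocyte form EIF4E1B had 0 counts in every library. On the FPKM scale, EIF4E2 made up 80.4, 79.6 and 77.9% of the summed EIF4E, EIF4E2 and EIF4E3 level in the SIGLEC15 siRNA libraries and 70.9, 70.0 and 76.8% in the control siRNA libraries. These shares did not overlap. On counts, which are not divided by length, the shares were lower, at 67.2, 66.3 and 63.7% with SIGLEC15 siRNA. With control siRNA they were 54.8, 53.9 and 61.35%, again without overlap.

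None of the 3 tested eIF4E-binding protein genes passed in edgeR or DESeq2 or had an unadjusted p under 0.05. EIF4EBP1, the inhibitor with the highest level per length, had 152, 131 and 128 CPM with SIGLEC15 siRNA and 138, 142 and 159.5 CPM with control siRNA (log2 fold change -0.10, SE 0.0934, edgeR adjusted p = 0.632). EIF4EBP2, its relative, had 125, 129 and 138 CPM with SIGLEC15 siRNA and 147, 152 and 138 CPM with control siRNA. The third libraries of the groups were nearly equal, and the log2 fold change was -0.16 (SE 0.0683, edgeR adjusted p = 0.282). EIF4ENIF1, which carries eIF4E into the nucleus, had a log2 fold change of -0.10 (edgeR adjusted p = 0.555). EIF4EBP3 had 1, 1 and 6 counts with SIGLEC15 siRNA and 0, 1 and 1 with control siRNA, and 71.8% of its 50-base words are also in the read-through gene ANKHD1-EIF4EBP3, which had a log2 fold change of 0.03. The ratio of EIF4EBP1 and EIF4EBP2 to EIF4E on the FPKM scale was 34.7, 32.6 and 28.6 in the SIGLEC15 siRNA libraries and 31.8, 31.5 and 34.9 in the control siRNA libraries, which overlap. On counts, which are not divided by length, it was far smaller. There it was 3.608, 3.626 and 3.302 with SIGLEC15 siRNA and 3.646, 3.617 and 3.695 with control siRNA, which also overlap. The size of the ratio thus depends on the scale.

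The scaffolds differed by small amounts. EIF4G1, the main eIF4G, had 754, 767 and 763 CPM with SIGLEC15 siRNA and 688, 628 and 639 CPM with control siRNA. The groups did not overlap, but the log2 fold change of 0.22 (SE 0.0569) missed the threshold (edgeR adjusted p = 0.0825). EIF4G2, also called DAP5, lacks the eIF4E-binding part and serves cap-independent and re-initiating mRNAs. It had 1859, 1926 and 2055 CPM with SIGLEC15 siRNA and 2035, 1906 and 1645 CPM with control siRNA (log2 fold change 0.06, SE 0.0894, edgeR adjusted p = 0.772). EIF4G1 made up 89.6, 89.1 and 88.9% of the summed EIF4G1 and EIF4G3 FPKM in the SIGLEC15 siRNA libraries and 88.5, 88.8 and 89.0% in the control siRNA libraries, which overlap. EIF4G3 had a log2 fold change of 0.16 (edgeR adjusted p = 0.333).

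Counts of the helicase EIF4A1 were low, and those of the read-through gene high, in 2 of the 3 SIGLEC15 siRNA libraries. EIF4A1 (chr17:7572706-7578631, plus strand, as the table gives it) had 523, 803 and 557 CPM with SIGLEC15 siRNA and 1035, 883 and 873 CPM with control siRNA, so that the groups did not overlap. SENP3-EIF4A1 had 572, 69.6 and 342 CPM with SIGLEC15 siRNA and 164, 73.0 and 155 CPM with control siRNA. SIGLEC15 siRNA libraries 1 and 3, low in EIF4A1, were the high ones for the read-through gene, while library 2 was close to the controls in both. EIF4A1's log2 fold change was -0.57 (SE 0.170, edgeR adjusted p = 0.128), and that of SENP3-EIF4A1 was 1.33 (SE 0.695, edgeR adjusted p = 0.369). Without SIGLEC15 siRNA library 2 the EIF4A1 change was -0.78, with an edgeR adjusted p of 0.0347, within a range of 0.00207 to 0.565 over the alternatives.

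Counted together, EIF4A1 and SENP3-EIF4A1 had 1094, 872 and 899 CPM with SIGLEC15 siRNA and 1199, 956 and 1028 CPM with control siRNA. AC016876.2, which shares 33.8% of the 50-base words of EIF4A1 transcripts, was left out of this sum. The summed groups overlapped (955 ± 121 and 1061 ± 125 CPM, SD, n = 3 each), and the log2 fold change of the sum was -0.15 (SE 0.119, edgeR adjusted p = 0.565). EIF4A1's own part of the sum was 47.8, 92.0 and 62.0% with SIGLEC15 siRNA and 86.4, 92.4 and 84.9% with control siRNA. The upstream gene SENP3 had 50.6, 119.8 and 60.5 CPM with SIGLEC15 siRNA and 154, 144 and 154 CPM with control siRNA (log2 fold change -0.97, edgeR adjusted p = 0.147). The same 2 libraries were thus low in both flanking genes and high in the read-through gene. Whether reads were divided differently between these overlapping genes, or more read-through RNA was made, was not tested.

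**Figure D3:**
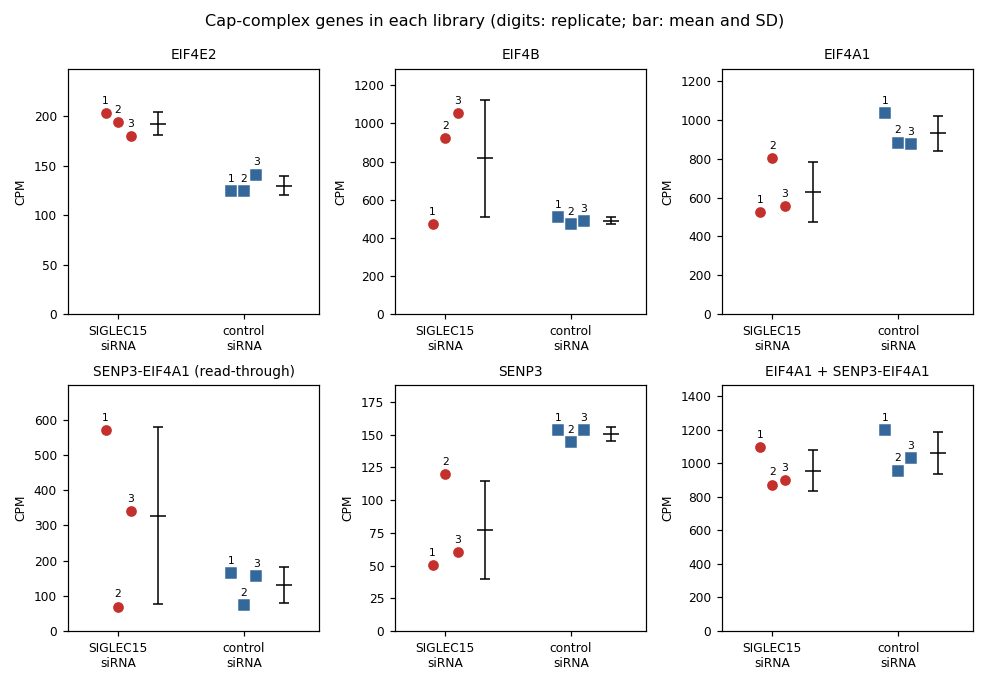
CPM (y axes, from 0) of EIF4E2, EIF4B, EIF4A1, SENP3-EIF4A1, SENP3 and the sum of EIF4A1 and SENP3-EIF4A1 in SIGLEC15 siRNA libraries (red circles, left) and control siRNA libraries (blue squares, right). Digits give the replicate number, and black bars the mean and SD of 3 libraries. EIF4E2 is higher in each SIGLEC15 siRNA library, EIF4A1 is lower in each, and EIF4B and SENP3-EIF4A1 overlap between the groups and spread widely among the SIGLEC15 siRNA libraries.

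The cofactors of eIF4A gave an uneven picture. EIF4B, which stimulates the helicase, falls outside the rule for naming genes and was singled out after its values were seen. It had 472, 923 and 1055 CPM with SIGLEC15 siRNA and 509.5, 474 and 488 CPM with control siRNA. Library 1 of the SIGLEC15 siRNA group stood at the control level and the other 2 far above it. The log2 fold change was 0.74 (SE 0.271, edgeR adjusted p = 0.202). Without that library it was 1.01, with an edgeR adjusted p of 0.0107, within a range of 0.0107 to 0.414 over the alternatives. EIF4B shares 27.6% of its 50-base words with other genes, and 3 of its pseudogenes, EIF4BP3, EIF4BP6 and EIF4BP7, had log2 fold changes of -0.14, -0.14 and -0.19, none of which passed.

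EIF4A2, the paralogue of EIF4A1, had a log2 fold change of -0.05 with an SE of 0.142 (edgeR adjusted p = 0.891). On the FPKM scale EIF4A1 made up 58.4, 65.2 and 58.0% of the summed EIF4A1 and EIF4A2 level with SIGLEC15 siRNA and 75.3, 68.5 and 63.4% with control siRNA, shares that overlap. EIF4A3, a related helicase of the exon junction complex, had an interval from -0.19 to 0.19. EIF4H, a further helicase cofactor named after its values were seen, had 458, 448 and 456 CPM with SIGLEC15 siRNA and 410.4, 429 and 403 CPM with control siRNA. These groups did not overlap, and the log2 fold change of 0.13 did not pass (edgeR adjusted p = 0.239).

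The eIF2 complex that carries the initiator tRNA showed its subunits on either side of 0. EIF2S1 encodes the alpha subunit, the one that the eIF2 kinases phosphorylate. It had 392, 374 and 406 CPM with SIGLEC15 siRNA and 319, 335 and 331 CPM with control siRNA. The groups did not overlap, and the log2 fold change was 0.25 (SE 0.0578), with an edgeR adjusted p of 0.0638. EIF2S2, the beta subunit and the member with the highest level per length, had 684, 631 and 672 CPM with SIGLEC15 siRNA and 692, 696 and 715 CPM with control siRNA (log2 fold change -0.08, SE 0.0557, edgeR adjusted p = 0.495). EIF2S3, the gamma subunit, had a log2 fold change of -0.15 (edgeR adjusted p = 0.243) with groups that did not overlap. EIF2A and EIF2D, which can deliver tRNA without eIF2, had log2 fold changes of -0.08 and -0.16. EIF2S3B, a retrogene copy that shares 26.8% of its 50-base words with EIF2S3, had one of -0.17 with an interval from -1.48 to 1.14. None of the 6 genes of this group passed the edgeR test. An unadjusted p under 0.05 was found for 2 (33.3%, against 19.1% of all genes). DESeq2 called EIF2S1 alone, against 15.4% of all genes.

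The exchange factor eIF2B had 5 tested subunits, none of which passed in edgeR. An unadjusted p under 0.05 was found for 2 (40%, against 19.1% of all genes). These were EIF2B2, the beta subunit, and EIF2B5, the catalytic epsilon subunit, and DESeq2 called both, against 15.4% of all genes. EIF2B2 had 58.4, 63.6 and 58.1 CPM with SIGLEC15 siRNA and 89.5, 71.8 and 75.7 CPM with control siRNA (log2 fold change -0.40, SE 0.0993, edgeR adjusted p = 0.0803). EIF2B5, named after its values were seen, had 116, 111 and 109 CPM with SIGLEC15 siRNA and 96.0, 92.1 and 81.0 CPM with control siRNA (log2 fold change 0.32, SE 0.0804, edgeR adjusted p = 0.0815). In both genes the groups did not overlap, with EIF2B2 lower and EIF2B5 higher. EIF2B1, EIF2B3 and EIF2B4 had log2 fold changes of 0.04, 0.02 and 0.04. EIF2B1, the alpha subunit with the highest level of the complex, had 83.0, 77.6 and 74.1 CPM with SIGLEC15 siRNA and 74.6, 72.9 and 80.7 CPM with control siRNA (edgeR adjusted p = 0.842). The mean FPKM of the 5 subunits over that of EIF2S1 was 0.196, 0.200 and 0.177 with SIGLEC15 siRNA and 0.238, 0.213 and 0.225 with control siRNA, without overlap. The divisor EIF2S1 was itself higher with SIGLEC15 siRNA (log2 fold change 0.25), while EIF2S2 (-0.08) and EIF2S3 (-0.15) were not. The summed CPM of the 5 subunits overlapped, at 349.9, 340.6 and 329.6 with SIGLEC15 siRNA and 346.6, 321.8 and 329.8 with control siRNA.

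The eIF2 kinases had log2 fold changes between -0.04 and 0.23, and neither edgeR nor an unadjusted p under 0.05 nor DESeq2 called any of the 4. EIF2AK1 (HRI), which senses haem and mitochondrial stress and had the highest level, had 315, 292 and 295 CPM with SIGLEC15 siRNA and 267, 282 and 292 CPM with control siRNA (log2 fold change 0.10, SE 0.0625, edgeR adjusted p = 0.449). AIMP2, on the opposite strand, overlaps its end and shares 8.52% of the 50-base words of EIF2AK1 transcripts. AIMP2 averaged 144 CPM with SIGLEC15 siRNA and 109 CPM with control siRNA (log2 fold change 0.40, edgeR adjusted p = 0.0781). Since the use of strand is not stated, reads of this overlap cannot be told apart. EIF2AK2 (PKR), which binds double-stranded RNA and is induced by interferon, had 98.8, 96.5 and 106 CPM with SIGLEC15 siRNA and 108, 105 and 97.2 CPM with control siRNA (log2 fold change -0.04, SE 0.0709, edgeR adjusted p = 0.817). The values of PKR overlapped between the groups. EIF2AK3 (PERK), the kinase of the endoplasmic reticulum, had 28.2, 31.0 and 33.3 CPM with SIGLEC15 siRNA and 29.9, 25.6 and 23.4 CPM with control siRNA (log2 fold change 0.23, SE 0.122, edgeR adjusted p = 0.374). EIF2AK4 (GCN2), which senses uncharged tRNA, had 135, 149 and 144 CPM with SIGLEC15 siRNA and 128, 139.5 and 124 CPM with control siRNA (log2 fold change 0.13, SE 0.0713, edgeR adjusted p = 0.401). These values are of mRNA and say nothing of kinase activity.

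The 14 genes of eIF3, the scaffold that holds the small subunit and the mRNA together, gave narrow intervals. Their log2 fold changes ran from -0.18 (EIF3E) to 0.24 (EIF3J), and all 14 intervals lay within 1.5-fold. No subunit passed in edgeR, while 2, EIF3J and EIF3E, had an unadjusted p under 0.05 (14.3%, against 19.1% of all genes). DESeq2 called these 2, against 15.4% of all genes. EIF3J, a loosely bound subunit at the decoding site, had 198, 188 and 206 CPM with SIGLEC15 siRNA and 168, 166 and 168 CPM with control siRNA (log2 fold change 0.24, SE 0.0588, edgeR adjusted p = 0.0763). Its groups did not overlap. EIF3A, the largest subunit, had 586, 584 and 713 CPM with SIGLEC15 siRNA and 751, 664 and 661 CPM with control siRNA (log2 fold change -0.14, SE 0.0996, edgeR adjusted p = 0.515). EIF3I, the subunit with the highest level per length, had 366, 329 and 319.9 CPM with SIGLEC15 siRNA and 302, 308 and 314 CPM with control siRNA (log2 fold change 0.13, SE 0.0679, edgeR adjusted p = 0.354).

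The other tested subunits outside the EIF3C pair, namely EIF3B, EIF3D, EIF3F, EIF3G, EIF3H, EIF3K, EIF3L and EIF3M, had log2 fold changes between -0.13 (EIF3H) and 0.12 (EIF3B). Levels within eIF3 ran from 17.8 FPKM (EIF3K) to 157 FPKM (EIF3I). EIF3C and EIF3CL are near-identical copies, with 97.2% of the 50-base words of EIF3CL also in EIF3C, so the counts of each are uncertain. Summed, they differed by -0.03 on the log2 scale (SE 0.0584, edgeR adjusted p = 0.848). Over the whole family, 37 of the 56 members shared under 10% of their words with any other gene. Among the rest, EIF3L shared 44.5% and EIF2B2 21.4%.

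None of the 4 tested genes of the eIF1 and eIF1A group passed in edgeR. EIF1B alone had an unadjusted p under 0.05 (25% of the group, against 19.1% of all genes). It was called by DESeq2, against 15.4% of all genes. EIF1B is a paralogue of EIF1, which keeps the scanning ribosome open until a start codon is met. It had 48.3, 41.9 and 47.9 CPM with SIGLEC15 siRNA and 56.9, 58.9 and 57.6 CPM with control siRNA. The groups did not overlap, and the log2 fold change was -0.33 (SE 0.0810, edgeR adjusted p = 0.0767). EIF1 had 661, 598 and 593 CPM with SIGLEC15 siRNA and 666, 676 and 704 CPM with control siRNA, also without overlap (log2 fold change -0.14, SE 0.0642, edgeR adjusted p = 0.294). EIF1AX, which works beside EIF1 on the scanning ribosome, had a log2 fold change of 0.07 (edgeR adjusted p = 0.724), and EIF1AD had an interval from -0.18 to 0.17. EIF1B's part of the summed FPKM of EIF1 and EIF1B was 12.3, 11.8 and 13.4% with SIGLEC15 siRNA and 14.1, 14.3 and 13.6% with control siRNA, shares that did not overlap.

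None of the 6 genes of eIF5, eIF5B, eIF5A and eIF6 passed in edgeR. EIF5A2 alone had an unadjusted p under 0.05 (16.7% of the group, against 19.1% of all genes). It was called by DESeq2, against 15.4% of all genes. EIF5A, which carries hypusine and helps the ribosome through difficult peptide bonds, had 720.2, 718 and 618 CPM with SIGLEC15 siRNA and 741, 654 and 629 CPM with control siRNA (log2 fold change 0.02, SE 0.0913, edgeR adjusted p = 0.931). Its paralogue EIF5A2, studied as an oncogene, had 14.7, 15.3 and 17.6 CPM with SIGLEC15 siRNA and 13.4, 13.0 and 11.5 CPM with control siRNA. These groups did not overlap, and the log2 fold change of 0.32 (SE 0.119) did not pass (edgeR adjusted p = 0.201). EIF5A2 was 0.979, 1.02 and 1.36% of the summed EIF5A and EIF5A2 FPKM with SIGLEC15 siRNA and 0.871, 0.955 and 0.879% with control siRNA. EIF6, which keeps the large subunit from joining too early, had 299, 263 and 262 CPM with SIGLEC15 siRNA and 257, 254 and 248 CPM with control siRNA, again without overlap (log2 fold change 0.12, SE 0.0701, edgeR adjusted p = 0.433). EIF5, EIF5B and EIF5AL1 had log2 fold changes of 0.02, 0.12 and -0.12, none of which passed.

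EIF2S1, EIF3J, EIF1B, EIF2B2, EIF2B5 and EIF4G1 thus lay just outside the threshold, at edgeR adjusted p-values from 0.0638 to 0.0825 and with groups that did not overlap. These genes were gathered by their p-values, so the lack of overlap is not separate support. It was found for 26.6% of all genes. EIF2S1, EIF3J and EIF1B passed in 4 of 14 alternatives each, which were DESeq2, the restriction to genes of at least 5 FPKM and both limma-trend fits on FPKM. EIF2B2, EIF2B5 and EIF4G1 passed in DESeq2 alone, which called 15.4% of all genes.

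Genes around the family were read from 6 lists, all chosen with earlier results of these data known. Of 13 tested genes of the ATF4 pathway downstream of eIF2 phosphorylation, 3 fell and 0 rose in edgeR. This was 23.1%, against 4.65% of all genes and 7.54% of tested genes with a mean FPKM of at least 5. The list median was -0.32 on the log2 scale, against -0.00642 over all genes. An unadjusted p under 0.05 was found for 9 (69.2%, against 19.1% of all genes), 8 lower and 1 higher. CHAC1, which degrades glutathione, had 31.6, 30.8 and 31.5 CPM with SIGLEC15 siRNA and 60.4, 52.8 and 53.0 CPM with control siRNA (log2 fold change -0.82, SE 0.0833, edgeR adjusted p = 0.00536). DDIT4 (REDD1), an inhibitor of mTORC1, had 166, 154 and 149 CPM with SIGLEC15 siRNA and 246, 240.2 and 274 CPM with control siRNA (log2 fold change -0.70, SE 0.0776, edgeR adjusted p = 0.00719). ASNS, asparagine synthetase, had 196, 162 and 168 CPM with SIGLEC15 siRNA and 276, 294 and 298 CPM with control siRNA (log2 fold change -0.72, SE 0.0865, edgeR adjusted p = 0.00858). In these 3 genes each SIGLEC15 siRNA library lay below each control library. ATF4 itself had 1026, 911 and 918 CPM with SIGLEC15 siRNA and 1154, 1154 and 1258 CPM with control siRNA, and its log2 fold change of -0.32 (SE 0.0710) missed the threshold (edgeR adjusted p = 0.0572).

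Of 22 accessory initiation factors under other names, 1 fell and 0 rose (4.55%, close to the 4.65% of all genes), with a list median of -0.034. An unadjusted p under 0.05 was found for 5, all lower (22.7%). This is near the 19.1% of all genes and the 25.9% of tested genes with a mean FPKM of at least 5. The gene that passed was PPP1R15A (GADD34), the stress-induced subunit that brings protein phosphatase 1 to phosphorylated eIF2 and itself a target of ATF4. PPP1R15A had 129.6, 126 and 136 CPM with SIGLEC15 siRNA and 224, 202 and 223 CPM with control siRNA. The groups were far apart, by -0.73 on the log2 scale (SE 0.0689, edgeR adjusted p = 0.00447). Its constitutive counterpart PPP1R15B differed by -0.03 on the log2 scale (SE 0.0850, edgeR adjusted p = 0.890). PABPC1, the poly(A)-binding protein that contacts eIF4G, had a log2 fold change of -0.15 (edgeR adjusted p = 0.316), and PDCD4, an inhibitor of eIF4A, one of -0.29 (edgeR adjusted p = 0.161).

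Of 11 genes of mTORC1 and MNK signalling to eIF4F, 1 fell and 0 rose (9.09%, against 4.65% of all genes), with a list median of 0.15. An unadjusted p under 0.05 was found for 6 of them (54.5%, against 19.1% of all genes), 4 higher and 2 lower. DESeq2 called 5, against 15.4% of all genes. The largest changes, chosen after their values were seen, were those of AKT1S1 (PRAS40), an mTORC1 inhibitor (log2 fold change -1.19, edgeR adjusted p = 0.0885), and MKNK2, a kinase of eIF4E (0.67, edgeR adjusted p = 0.0529). AKT1S1 had 31.0, 32.3 and 26.8 CPM with SIGLEC15 siRNA and 36.6, 84.9 and 83.8 CPM with control siRNA. Its control library 1 thus stood near the SIGLEC15 siRNA libraries, and control libraries 2 and 3 far above them. RPTOR, the mTORC1 subunit raptor that recruits the eIF4E-binding proteins, had 40.5, 39.9 and 40.6 CPM with SIGLEC15 siRNA and 55.4, 55.1 and 51.9 CPM with control siRNA. The groups did not overlap, and the log2 fold change was -0.42 (SE 0.0682, edgeR adjusted p = 0.0218). The call was lost when any 1 of the 6 libraries was left out, with changes between -0.46 and -0.41. MTOR, the kinase, had 138, 148 and 156 CPM with SIGLEC15 siRNA and 146, 135 and 119 CPM with control siRNA (log2 fold change 0.15, SE 0.0917, edgeR adjusted p = 0.444).

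The remaining lists had no called gene in edgeR. Among 13 elongation, termination and hypusine factors, 2 had an unadjusted p under 0.05, DESeq2 called 1 and the list median was -0.0485. For 83 cytosolic ribosomal protein genes, whose mRNAs respond to mTORC1 in translation, these values were 4, 3 and -0.0161. For 12 interferon-stimulated genes, the class that contains EIF2AK2, they were 5, 4 and 0.268, all 5 were higher with SIGLEC15 siRNA, and each limma-trend fit called 1. Over all genes, 19.1% had an unadjusted p under 0.05 and DESeq2 called 15.4%.

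**Figure D4:**
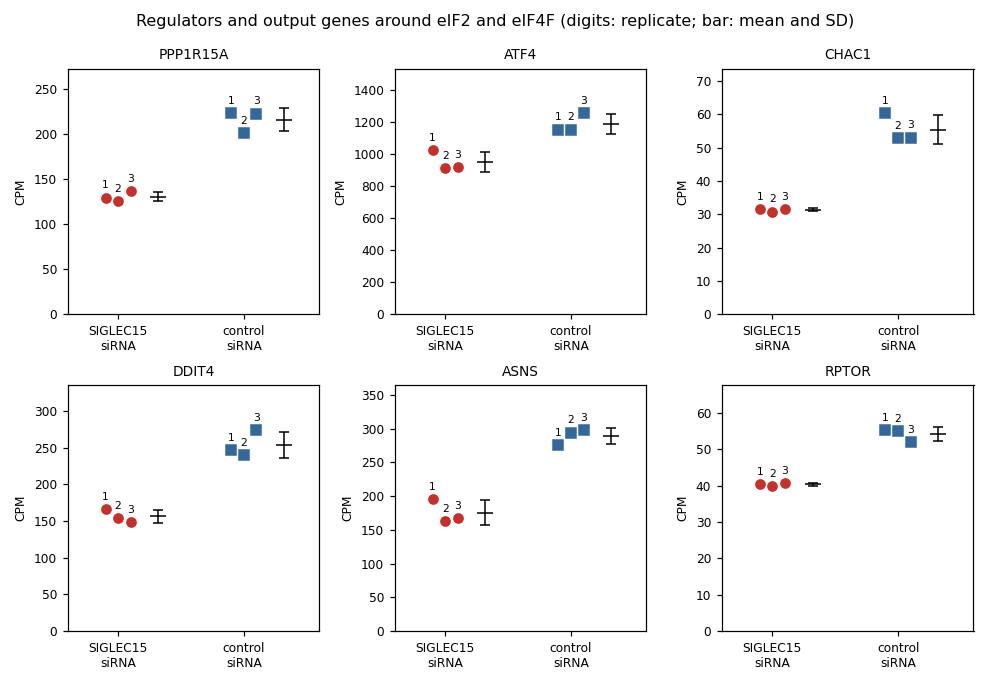
CPM (y axes, from 0) of PPP1R15A, ATF4, CHAC1, DDIT4, ASNS and RPTOR in SIGLEC15 siRNA libraries (red circles, left) and control siRNA libraries (blue squares, right). Digits give the replicate number, and black bars the mean and SD of 3 libraries. In each panel the 3 SIGLEC15 siRNA libraries lie below the 3 control siRNA libraries.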

How the data were processed

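Libraries of poly(A) RNA were grouped by the labels (3 SIGLEC15 siRNA, 3 control siRNA). The authors deposited 1 table with whole-number counts and FPKM values per gene and library, per the file headers. HISAT, StringTie and edgeR, without versions, are the tools in the submitters' processing notes. Not given in the sources used here are the counting method, the use of strand and the genome build. Counts were tested with edgeR 4.0.16 (R 4.3.3): filterByExpr (minimum count 10, minimum total 15), TMM, quasi-likelihood F test, Benjamini-Hochberg adjustment over 18910 genes, threshold 0.05. The SE is the log2 fold change over the square root of F. CPM uses TMM-scaled totals. FPKM served levels, shares and limma 3.58.1 fits on log2(FPKM + 1) or log2(FPKM + 0.1). DESeq2 1.42.0 was an alternative. Word sharing and junctions came from GENCODE 29 transcripts. The code was tested on simulated data. Members and lists were chosen with earlier results of these data known. Given in full were called members, in each of 8 role groups the member highest in FPKM and that of smallest p, and a list by role; of other lists, the called genes and PABPC1, PDCD4, PPP1R15A, PPP1R15B, MTOR and ATF4.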

Additional observations from a re-analysis of the deposited data

How the results depend on the processing

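No called change of a gene given in full turned its sign. Among the genes given in full, 4 small changes that never passed turned sign with 1 library left out: EIF5A ran from -0.03 to 0.10, EIF4G2 from -0.02 to 0.13, EIF2B1 from -0.01 to 0.08 and PPP1R15B from -0.10 to 0.03. Some of the other members with changes near 0, such as EIF3G and EIF4A2, turned sign in at least 1 alternative. The count of 879 changed genes was 2916 in DESeq2, 50 with the replicate number as a block and 260 to 431 with 1 library left out. The single changed member became 11 in DESeq2, 4 among genes of at least 5 FPKM on average and 4 in each limma-trend fit. It became 0 with the block and 0 to 1 with 1 library left out, and none was called without control library 1 or 2. The member called without SIGLEC15 siRNA library 1 was EIF4B and without library 2 EIF4A1, in place of EIF4E2. Over the 6 neighbouring lists, 5 called genes became 27 in DESeq2, 11 among genes of at least 5 FPKM on average, 10 in each limma-trend fit and 0 with the block. The EIF4E2 share, a log2 ratio of 0.129 on FPKM, was 0.214 on counts. Of 23 members given in full, 15 kept their call, not passing, in every alternative. Deviations of libraries with the same number showed little correlation (r of -0.0712, 0.00662 and -0.117). These values cannot settle whether the numbers mark pairs. The cause of these shifts, the calls lost under the block among them, was not tested. Summing partner genes was added after the data were seen. With 3 libraries per group, changes of members whose libraries spread widely within a group, such as EIF2S3B and EIF4E3, could not be resolved.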
